A study of Homo sapiens with 6 samples.

Results

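The genes described here make, move and export cholesterol. They are 33 genes chosen by symbol from the deposited count table of 25987 named genes, and all 33 were found there. They comprise 8 genes of the mevalonate pathway, 3 that make squalene and lanosterol, and 9 that turn lanosterol into cholesterol. The rest are 5 that govern the response to sterol levels, 5 of transport, uptake and esterification, and 3 of the efflux programme. RNA was measured in 786-O cells, a long-used human cell line from a clear cell renal tumour. The labels give its genotype as wild type, and the line is known to lack functional VHL. The copper group was 3 libraries from cells adapted to copper sulfate that had been bound to serum proteins beforehand. Their labels give 30, 31 and 32 uM for replicates 1, 2 and 3, and the series text gives 30 uM. The control group was 3 libraries from cells kept in serum handled the same way without added copper. Both groups grew in DMEM/F12 medium with 10% serum, and the labels do not give the length of exposure. Everything below comes from this single line, and nothing in the labels says that replicates were separate cultures, so p-values measure only the spread between these libraries.

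Cholesterol is built from acetyl-CoA by way of mevalonate, farnesyl diphosphate, squalene and lanosterol. When sterols in the endoplasmic reticulum run low, the escort protein SCAP carries the transcription factors SREBP1 and SREBP2 to the Golgi for cleavage, and they raise the synthesis genes. When sterols are plentiful, INSIG proteins hold SCAP back, and oxysterols activate the nuclear receptor LXR, which raises efflux pumps such as ABCA1. Clear cell renal carcinoma takes its name from cytoplasm rich in lipid and glycogen, and cholesterol esters are part of that store.

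Sequence is shown for 4 genes, to place the promoters of the genes at the centre of the results. RefSeq promoters on GRCh38.p14, 250 bases before to 50 after each start, were matched for 29 of the 33 genes. They were searched on both strands for TCACNCCAC, a strict form of the sterol response element. It was found in 1 of the 29, SREBF2, and in 1.15% of 27305 promoters of the same length. The match lies 133 bases before the SREBF2 start, on the plus strand of chr22:41832962-41832990, and is in capitals with 10 bases on either side.
SREBF2 element: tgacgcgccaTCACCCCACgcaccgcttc
The CCAAT box, bound by NF-Y, was present in 18 of the 29 promoters (62.1%), in 35.7% of all promoters and in 37.0% of the 10299 promoters of tested genes. GGGCGG, the Sp1 box, was in 25 of the 29 (86.2%), in 44.6% of all and in 70.1% of those of tested genes, the closer background for genes that these cells express. The direct repeat of the LXR site, a pair of AGGTCA with 4 bases between, was in 0 of the 29 and in 0.0183% of all promoters. These are matches of letters, and the absence of a match concerns only these windows. INSIG1 and MSMO1, which had the highest levels per length among the 33, and SC5D, which had the largest negative difference in copper, are printed in full for the 250 bases before the start. All 3 lie on the plus strand, at chr7:155297628-155297877, chr4:165327419-165327668 and chr11:121292521-121292770, and capitals mark CCAAT and GGGCGG on either strand.
INSIG1 promoter: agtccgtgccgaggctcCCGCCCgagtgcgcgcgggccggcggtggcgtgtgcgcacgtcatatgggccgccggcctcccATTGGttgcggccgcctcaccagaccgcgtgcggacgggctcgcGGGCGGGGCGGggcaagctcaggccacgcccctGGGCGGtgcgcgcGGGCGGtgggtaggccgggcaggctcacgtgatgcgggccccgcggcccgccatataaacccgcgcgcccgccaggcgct
MSMO1 promoter: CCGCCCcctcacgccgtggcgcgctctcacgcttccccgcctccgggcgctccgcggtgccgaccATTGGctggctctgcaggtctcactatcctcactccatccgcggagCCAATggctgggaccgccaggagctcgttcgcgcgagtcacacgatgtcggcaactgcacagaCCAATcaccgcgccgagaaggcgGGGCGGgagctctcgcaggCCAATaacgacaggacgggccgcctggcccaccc
SC5D promoter: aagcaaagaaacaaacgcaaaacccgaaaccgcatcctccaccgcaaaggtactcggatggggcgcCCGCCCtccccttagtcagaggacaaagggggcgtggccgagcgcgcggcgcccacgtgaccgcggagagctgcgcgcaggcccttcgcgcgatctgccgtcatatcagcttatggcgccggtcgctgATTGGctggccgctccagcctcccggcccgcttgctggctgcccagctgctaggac
The INSIG1 stretch holds 1 CCAAT and 5 GGGCGG boxes, the MSMO1 stretch 4 and 2, and the SC5D stretch 1 and 1.

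Library totals ran from 16301772 to 18189469 counts in copper and from 19219090 to 25079913 in control. Replicate 3 of both groups stood apart on the first principal component, which carried 57.9% of the variance, with scores of 41.2 (copper) and 17.6 (control), while the other 4 libraries scored -17.6 to -11.7. Results below are therefore given by replicate where they differ. Of 6 markers set for the line, 5 were clearly present, among them the renal factor PAX8 at 133 CPM in copper and 139 in control, where CPM is counts scaled to a library of 1000000. CA9, a hypoxia target usual in this cancer, had 7 counts in all 6 libraries together. Of 8 markers of other cells, 6 had 4 to 44 counts in all. The matrix genes COL1A1 and LUM were at 3.42 and 3.47 CPM in copper and 6.53 and 2.40 in control, and their part in the results was not tested. Libraries give shares of RNA, so fewer expressing cells and less RNA per cell cannot be told apart.

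Of the 33 genes, 32 passed the filter on low counts and were tested among 12944 genes. ABCG1 did not pass. By edgeR's quasi-likelihood test, 0 of the 32 passed an adjusted p of 0.05 in copper against control, where 0% of all tested genes passed, and each of the 32 had an adjusted p of 1.00. At an unadjusted p under 0.05 there were 2, SC5D and NPC1, beside 3.52% of all tested genes. DESeq2 and limma-voom also called 0 of the 32. With replicate number as a block, 22 of all tested genes were called (0.17%) and still 0 of the 32, with 0.490 (SC5D) as their smallest adjusted p. At an unadjusted p under 0.05 the block gave the same SC5D and NPC1, beside 8.41% of all tested genes. The median log2 fold change of the 32 was 0.05, beside 0.01 for all tested genes, with 20 higher and 12 lower. Of all tested genes, 6657 were higher and 6287 lower. Differences of the 32 ran from -0.34 for SC5D to 0.28 for MVD.

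The intervals show what size of change these libraries could hide. For 31 of the 32 genes the 95% interval of the log2 fold change lay within a 2-fold change in either direction, and for 24 it lay within 1.5-fold. With the replicate block the counts were 32 and 29, since the intervals of MVK, MVD, EBP, NPC2 and NR1H3 then lay within 1.5-fold. TM7SF2, with 12 to 51 counts per library, was the exception without the block, from -0.85 to 1.34. The intervals excluded 0 for SC5D and NPC1, without adjustment for the number of genes. Groups did not overlap for 3 of the 32, beside 10.8% of all tested genes. SC5D and NPC1 were wholly lower in copper, as were 5.35% of all tested genes, and PMVK was wholly higher, as were 5.45%.

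**Figure D1:**
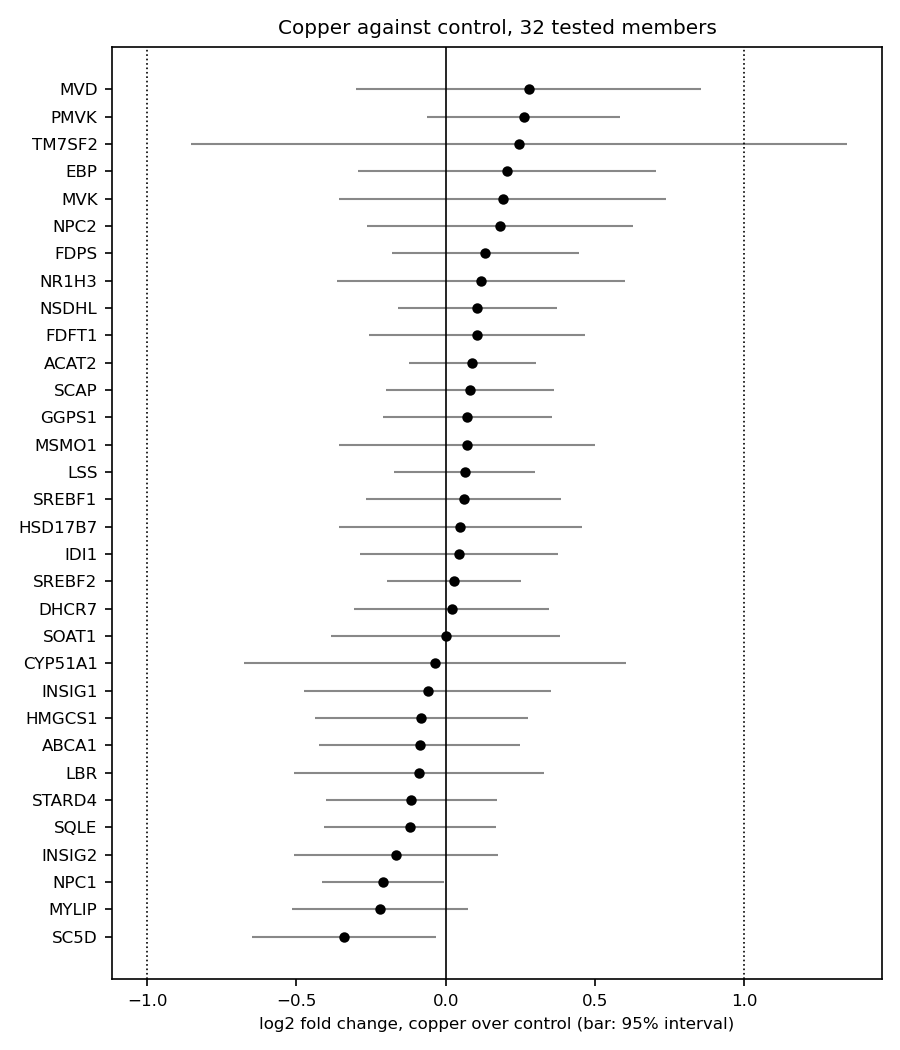
Log2 fold change of copper over control (x axis) for each of the 32 tested genes, with the 95% interval as a bar and dotted lines at a 2-fold change. The fit is without the replicate block. TM7SF2 is the only gene whose interval, to 1.34, crosses a dotted line, and SC5D and NPC1 have intervals wholly below 0.

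Levels of different genes were compared as CPM per kilobase of exons in GENCODE 29. In control, INSIG1 (132 ± 28.9) and MSMO1 (126 ± 27.4, both SD, n = 3) were highest, with SDs larger than the gap between their means. These SDs are between libraries, and the order of genes within a library was not compared. SQLE followed at 75.0 ± 11.5, NPC1 at 65.3 ± 2.47 and SREBF2 at 48.6 ± 2.86. Among the mevalonate enzymes HMGCS1 was at 45.3 ± 8.63, MVD at 39.0 ± 6.81, FDPS at 38.7 ± 3.67 and IDI1 at 37.2 ± 6.38, which overlap. ACAT2 (12.6 ± 0.446), GGPS1 (8.05 ± 0.375) and MVK (7.85 ± 1.38) were lower. At the foot of the order were NR1H3 (2.65 ± 0.461), CYP51A1 (1.12 ± 0.171), TM7SF2 (0.772 ± 0.246) and ABCG1, which had 1 to 3 counts per library. In copper INSIG1 was at 127 ± 19.1 and MSMO1 at 132 ± 22.3, so the first places were held by the same pair.

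**Figure D2:**
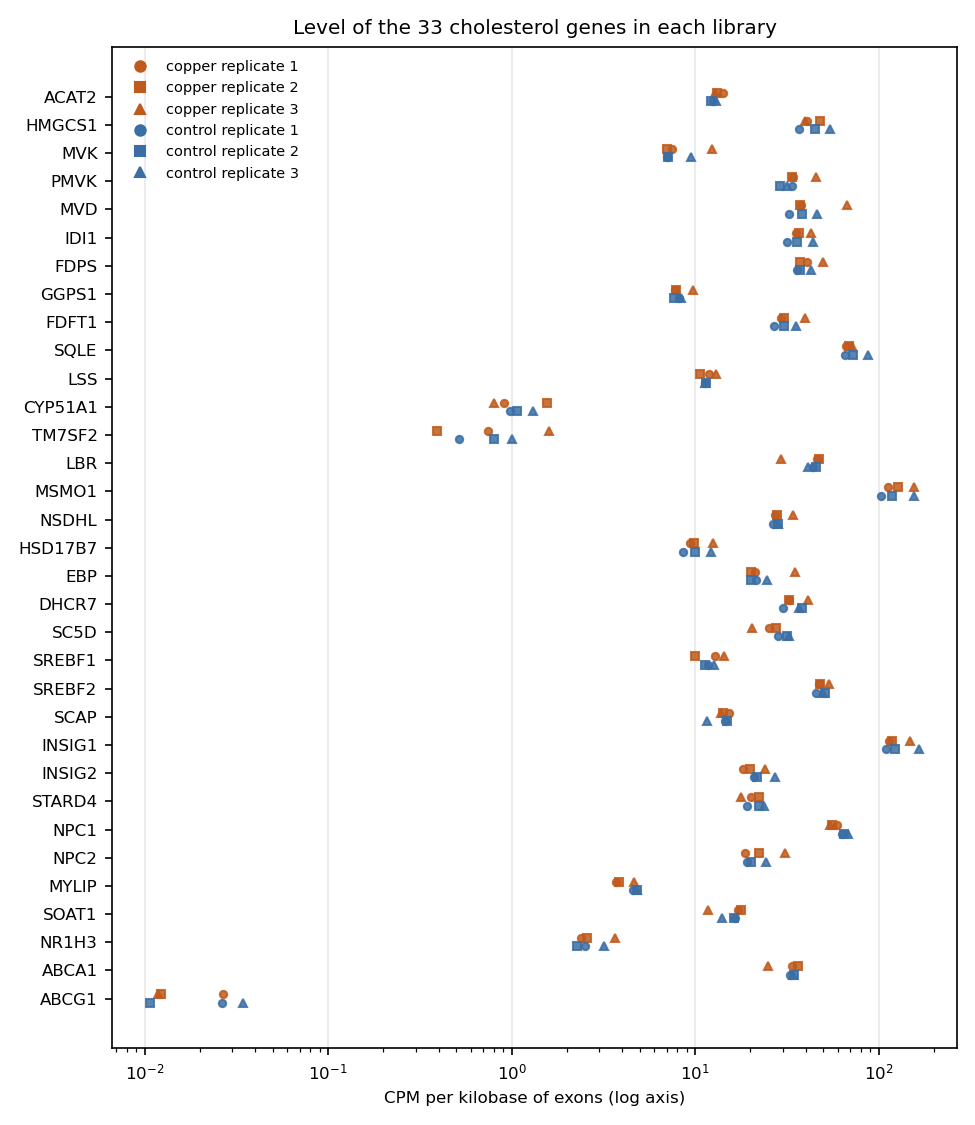
Level of each of the 33 genes, in CPM per kilobase of exons on a log axis, with a point for each library. Copper and control points overlap for most genes, INSIG1 and MSMO1 lie above 100 in every library, and CYP51A1, TM7SF2 and ABCG1 lie well to the left of the other genes.

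The level of CYP51A1, the lanosterol demethylase, is uncertain. It had 50 to 93 counts per library, while LSS before it was at 11.4 CPM per kilobase and MSMO1 after it at 126. Of the 50-base words in its coding transcripts, 86.7% also occur, on either strand, in transcripts of other genes, chiefly the overlapping AC000120.2 and the copies CYP51A1P2 and CYP51A1P1. How the authors treated reads that fit several genes is not given in the sources used here. The same share was 67.6% for ACAT2, which overlaps SOD2-OT1, SOD2 and TCP1, and 43.9% for HSD17B7, which has the copy HSD17B7P2. It was 31.6% for GGPS1, 22.0% for FDPS and 16.2% for HMGCS1, and below 10% for the other 27 genes. The genes that overlap exons of ACAT2, HMGCS1 and FDPS lie on the opposite strand, so the words shared through those overlaps matter only if strand was not used in counting, which is not given. Levels of the 6 genes named here are uncertain for these reasons. Of the overlapping genes, AC000120.2 (at CYP51A1) and AC114947.2 (at HMGCS1) were not among the symbols in the deposited counts. No link between these shares and the differences in copper was tested.

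The 8 mevalonate genes had a median log2 fold change of 0.11, with 7 higher and HMGCS1 lower in copper, and 0 called. Among the 12944 tested genes, 6657 were higher. Without copper replicate 3, MVK, MVD, IDI1 and GGPS1 were also lower, with log2 fold changes of -0.112, -0.0584, -0.0382 and -0.0446. ACAT2, PMVK and FDPS then had 0.114, 0.109 and 0.00615. Control replicate 3 stayed in that fit. In replicates 1 and 2 alone, MVK, MVD, IDI1 and GGPS1 had 0.0376, 0.0798, 0.103 and -0.0207, and HMGCS1 had 0.113. PMVK, the second kinase of mevalonate (chromosome 1, 154924740 to 154936719 in the deposited table, on GRCh38), was at 43.6, 43.4 and 58.0 CPM in copper replicates 1, 2 and 3 and at 43.2, 37.4 and 40.4 in control. All 3 copper values were above all 3 control values, but copper replicate 1 exceeded control replicate 1 by only 0.45 CPM. Its log2 fold change was 0.26 (SE 0.14). The unadjusted p by edgeR was 0.0979 and, with the replicate block, 0.0514. Without copper replicate 3 the log2 fold change was 0.109. MVD, which removes a carboxyl group to give isopentenyl diphosphate, was at 68.6, 67.9 and 122 CPM in copper and 59.4, 69.9 and 84.1 in control. Copper replicate 3 was far above every other library, and the rest overlapped, so that without it the log2 fold change went from 0.28 to -0.0584.

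FDPS, which makes farnesyl diphosphate, was at 66.9, 61.1 and 81.5 CPM in copper and 59.1, 61.6 and 70.6 in control. The groups overlapped, with a log2 fold change of 0.13 (95% interval -0.18 to 0.44). It was 0.00615 without copper replicate 3 and 0.0846 in replicates 1 and 2 alone. ACAT2, the cytosolic thiolase that starts the pathway, was at 45.0, 41.6 and 41.0 CPM in copper and 39.7, 38.8 and 41.6 in control, a log2 fold change of 0.09. HMGCS1, which condenses acetyl-CoA into HMG-CoA and is a classic SREBP target, was at 144, 168 and 141 CPM in copper. In control it was at 130, 159 and 190 CPM. Copper was above control in replicates 1 and 2 and below it by 0.44 on the log2 scale in replicate 3, and the log2 fold change was -0.08 (95% interval -0.44 to 0.27). The kinase MVK, the isomerase IDI1 and the geranylgeranyl diphosphate synthase GGPS1 had log2 fold changes of 0.19, 0.04 and 0.07, all with overlapping groups.

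Of the 3 genes that make squalene and lanosterol, 2 were higher and 1 lower in copper, and 0 were called. SQLE, the squalene epoxidase, an oxygen-requiring control point of the pathway, was at 198, 205 and 213 CPM in copper and 194, 214 and 260 in control. Control replicate 3 was the highest library, and the other 5 lay close together. Its log2 fold change was -0.12 (95% interval -0.41 to 0.17). The squalene synthase FDFT1 and the cyclase LSS had log2 fold changes of 0.10 and 0.06. LSS was level across control, at 60.6, 61.2 and 61.0 CPM, and ran from 57.2 to 69.8 in copper.

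Among the 9 genes that convert lanosterol, 6 were higher and 3 lower in copper (median log2 fold change 0.05). SC5D, the desaturase that acts near the end of the route (chromosome 11, 121292868 to 121313410), was at 67.5, 73.6 and 54.6 CPM in copper and 75.5, 85.3 and 87.2 in control. Every copper library was below every control library. A log2 fold change of -0.34 (SE 0.13) was fitted. The unadjusted p was 0.0338 by edgeR and 0.0168 with the replicate block, and neither passed adjustment. The differences in replicates 1, 2 and 3 were -0.16, -0.21 and -0.68, and without copper replicate 3 the log2 fold change was -0.227.

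The genes of the steps beside SC5D had other values. EBP, the isomerase just before it, had a log2 fold change of 0.21 and DHCR7, the reductase just after it, 0.02, with intervals of -0.29 to 0.70 and -0.31 to 0.35. EBP was at 37.4, 35.9 and 61.8 CPM in copper and 38.2, 35.6 and 43.5 in control, so copper replicate 3 was the one library well above the rest. MSMO1, the methylsterol oxidase, ranged from 284 to 395 CPM in copper and from 260 to 395 in control, with a log2 fold change of 0.07. Its partners in removing the methyl groups, NSDHL and HSD17B7, had log2 fold changes of 0.11 and 0.05. The sterol reductase activity after CYP51A1 is shared by LBR, an inner nuclear membrane protein, and TM7SF2. LBR was at 43.6 CPM per kilobase in control and TM7SF2 at 0.772. LBR was at 181, 184 and 114 CPM in copper and 172, 177 and 160 in control, where copper replicate 3 was the lowest library.

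**Figure D3:**
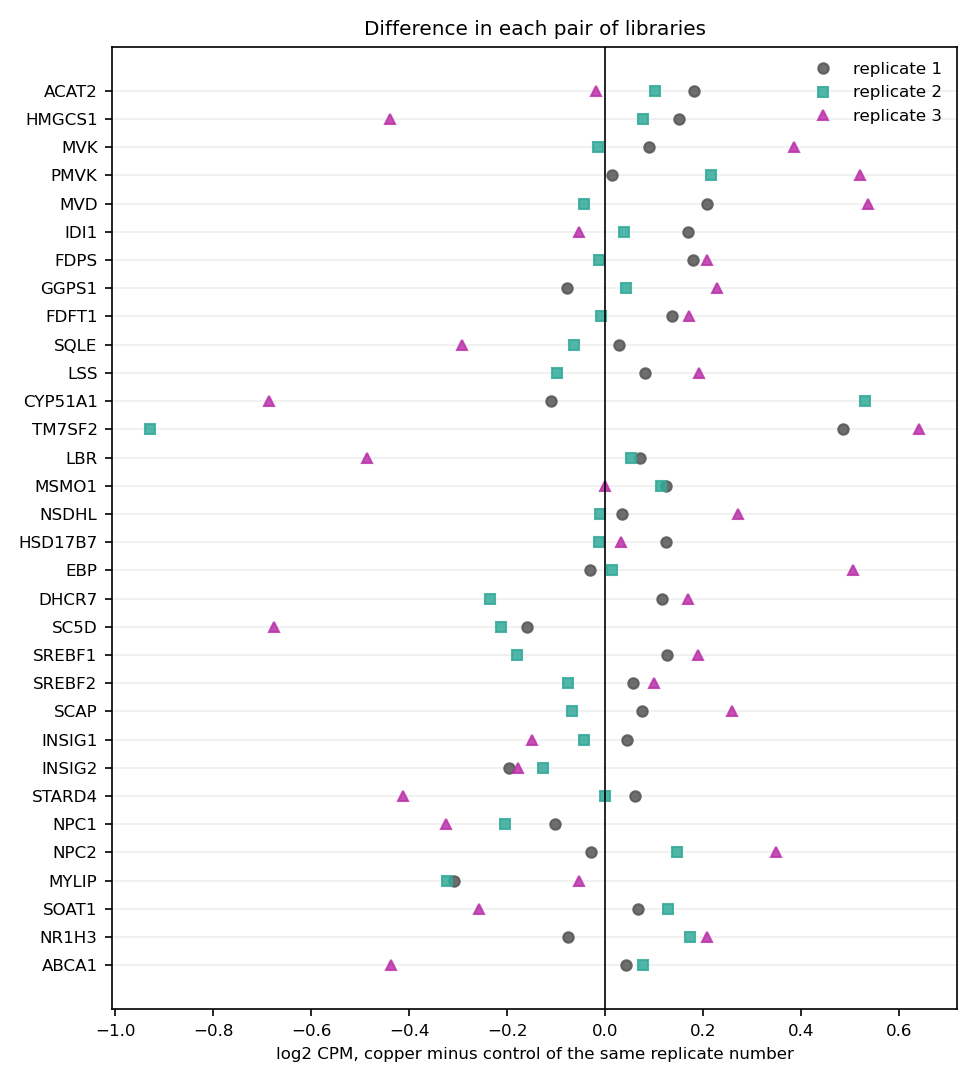
Difference in log2 CPM between the copper and the control library of the same replicate number (x axis) for the 32 tested genes. Replicates 1 and 2 lie near 0 for most genes, while replicate 3 reaches 0.54 for MVD and -0.68 for SC5D, and CYP51A1 and TM7SF2, with few counts, scatter widely.

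Of the 5 genes that govern the response to sterol levels, 3 were higher and 2 lower in copper, all within 0.17 on the log2 scale. SREBF2, which encodes the main factor for the synthesis genes, was at 253, 258 and 287 CPM in copper and 243, 272 and 267 in control, a log2 fold change of 0.03 (95% interval -0.20 to 0.25). SREBF1, which encodes the factor tied to fatty acid synthesis, was at 58.0, 45.1 and 64.5 CPM in copper and 53.1, 51.2 and 56.6 in control, a log2 fold change of 0.06. In both genes the groups overlapped and replicate 2 was lower in copper. INSIG1, itself a sensitive SREBP target, was at 349, 366 and 458 CPM in copper and 339, 376 and 509 in control. Replicate 3 was the highest in both groups, and copper and control differed by 0.04, -0.04 and -0.15 in replicates 1, 2 and 3. Its log2 fold change was -0.06 (95% interval -0.47 to 0.35). INSIG2 was at 47.1, 51.9 and 62.1 CPM in copper and 54.0, 56.6 and 70.3 in control. It was lower in copper in all 3 replicates, with log2 differences of -0.20, -0.13 and -0.18, although the groups overlapped. The log2 fold change was -0.17 (SE 0.15) without the block and -0.17 (SE 0.08) with it. The adjusted p by edgeR with the block was 0.614. The fold change was -0.0424 without control replicate 3 and -0.082 without copper replicate 1, each with the same-numbered library of the other group kept. In replicates 1 and 2 alone it was -0.158. SCAP had a log2 fold change of 0.08.

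Of the 5 genes of transport, uptake and esterification, 4 were lower in copper (median log2 fold change -0.12), beside 48.6% of all tested genes. SOAT1, among the 4, was at -0.00027, and STARD4 was at 0.0308 in replicates 1 and 2 alone. NPC1, the membrane protein that exports cholesterol from lysosomes (chromosome 18, 23531442 to 23586506), was at 304, 289 and 280 CPM in copper and 326, 333 and 351 in control. Each copper library was below each control library. The log2 fold change was -0.21 (SE 0.09), with an unadjusted p of 0.0446 and, with the block, 0.0335, and it did not pass adjustment. The log2 differences in replicates 1, 2 and 3 were -0.10, -0.20 and -0.32, and leaving out any one library kept the fold change between -0.245 and -0.18. NPC2, the soluble partner that hands cholesterol to NPC1, went the other way at 48.0, 57.3 and 79.1 CPM in copper and 48.99, 51.7 and 62.1 in control, with overlapping groups and a log2 fold change of 0.18.

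MYLIP, the LXR-induced ubiquitin ligase that degrades lipoprotein receptors, was at 11.3, 11.7 and 14.03 CPM in copper and 13.996, 14.6 and 14.6 in control. The groups overlapped only through copper replicate 3. Log2 differences were -0.31, -0.32 and -0.05 in replicates 1, 2 and 3, and the log2 fold change was -0.22 (SE 0.13, unadjusted p = 0.121). STARD4, a carrier that moves sterol between membranes and an SREBP2 target, was at 111, 124 and 98.4 CPM in copper and 107, 124 and 131 in control. Replicate 3 had a log2 difference of -0.41, against 0.06 and 0.00088 in replicates 1 and 2, and the log2 fold change was -0.12. SOAT1, which esterifies cholesterol for storage in droplets, was at 119, 123 and 81.5 CPM in copper and 114, 112 and 97.5 in control. Replicate 3 was the lowest library in both groups, and the log2 fold change was -0.00027 (95% interval -0.38 to 0.38).

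Of the efflux programme, 2 genes could be tested. ABCA1, the pump that loads cholesterol onto apolipoproteins and a direct LXR target, was at 381, 411 and 282 CPM in copper and 369, 390 and 382 in control. Copper replicate 3 was the lowest library and the other 5 were close together. The log2 fold change was -0.09 (95% interval -0.42 to 0.25), and 0.0583 without copper replicate 3. NR1H3, which encodes LXR alpha, was at 8.35, 9.03 and 12.8 CPM in copper and 8.81, 7.99 and 11.1 in control, a log2 fold change of 0.12 with overlapping groups. ABCG1, the second pump, had 2, 1 and 1 counts in copper and 3, 1 and 3 in control, too few to compare.

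The synthesis genes varied more between replicates than between groups. The summed level of the 8 mevalonate genes was 544, 562 and 665 CPM in copper replicates 1, 2 and 3 and 493, 543 and 642 in control. That of the 9 lanosterol-converting genes was 728, 780 and 828 in copper and 695, 775 and 864 in control. Both sums overlapped between groups. Replicate 3 was the highest control library for 23 of the 32 genes (71.9%), where the same held for 42.1% of all tested genes. It was the highest copper library for 22 of the 32 (68.8%), against 44.3% of all tested genes. For 17 of the 32 it was the highest in both groups, against 30.0% of all. These are descriptions of 2 libraries, with no test. The summed level of the transport, uptake and esterification genes was 594, 604 and 553 CPM in copper and 610, 635 and 656 in control. These values did not overlap. NPC1, by itself without overlap, made up the largest part of this sum. STARD4, NPC2, MYLIP and SOAT1 each overlapped between groups, so the sum is not a result apart from NPC1.

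**Figure D4:**
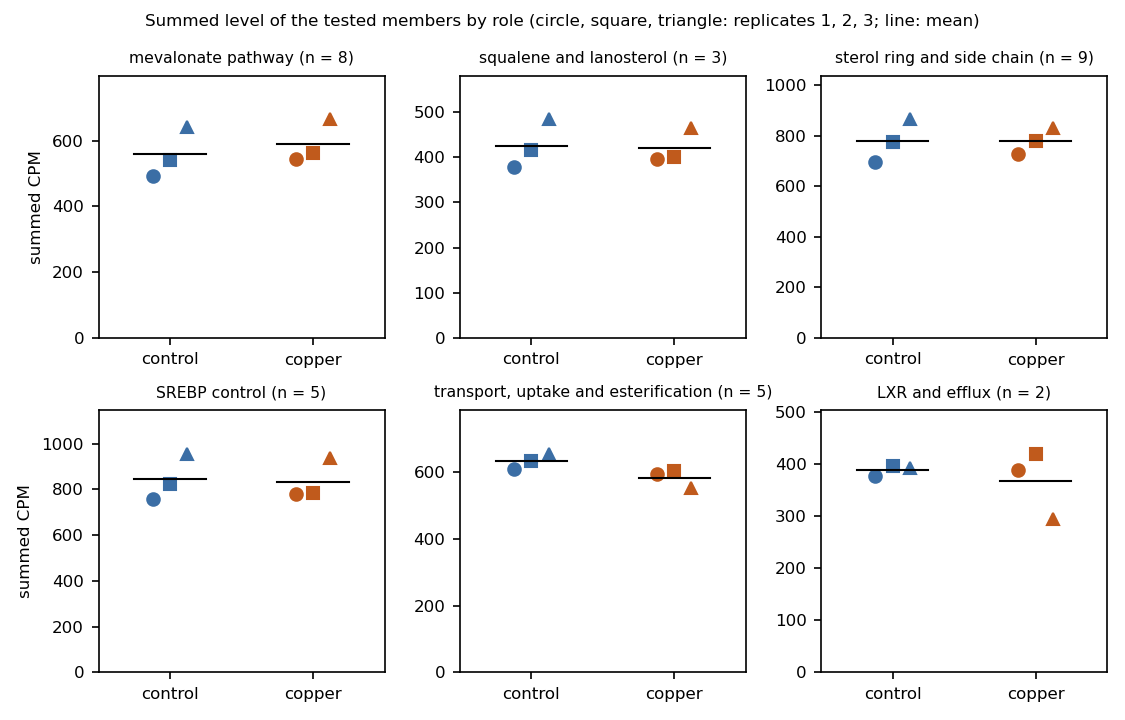
Summed CPM (y axis, from 0) of the tested genes in each of 6 roles, with a point for each library and a line at the mean of 3. Replicate 3 (triangles) is highest in both groups for the mevalonate, squalene, sterol ring and SREBP panels, reaching 642 in control and 665 in copper for the mevalonate genes.

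The replicates did not share a direction. In replicate 1, 23 of the 32 genes were higher in copper with a median difference of 0.06, in replicate 2 there were 14 with -0.01, and in replicate 3 there were 17 with 0.07. Only PMVK was higher in copper in all 3 replicates, where 17.7% of all tested genes were. Lower in all 3 were SC5D, INSIG2, NPC1 and MYLIP, 4 of the 32, beside 17% of all tested genes. The median over the 32 was -0.0458 without copper replicate 3 and -0.00851 without control replicate 1. Those fits kept the same-numbered library of the other group. The median was 0.0342 in replicates 1 and 2 alone and 0.0498 with the replicate block. Its sign thus changed where those single libraries were left out. Leaving aside CYP51A1 and TM7SF2, whose few counts gave differences from -0.93 to 0.64, the extremes lay in replicate 3. There MVD, PMVK and EBP were higher in copper by 0.54, 0.52 and 0.51, and SC5D, LBR, HMGCS1, ABCA1 and STARD4 lower by 0.68, 0.49, 0.44, 0.44 and 0.41 on the log2 scale, so members of the same pathway lay on both sides.

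A further 46 genes around the pathway were listed, of which 45 were in the table and 41 were tested. They cover the isoprenoid branch, SREBP cleavage and sterol-sensed degradation, sterol transfer, lipoprotein receptors, LXR partners, oxysterol enzymes and partners of synthesis. By edgeR 0 of the 41 were called with or without the block, and their median log2 fold change was -0.01, with 19 higher and 22 lower. At an unadjusted p under 0.05 there were 2 of the 41, beside 3.52% of all tested genes. Both were lower in copper, where 1.59% of all tested genes passed in that direction. OSBP, which exchanges cholesterol between the endoplasmic reticulum and the Golgi, was at 108 CPM in copper and 129 in control. Its log2 fold change was -0.25, unadjusted p = 0.0369, and its groups did not overlap. FAXDC2, a relative of the sterol hydroxylases, was at 1.12 and 1.83 CPM, a log2 fold change of -0.66. Its unadjusted p by edgeR was 0.0253, with an adjusted p of 1.00. With the block there were 5 of the 41 at an unadjusted p under 0.05, beside 8.41% of all tested genes. All 5 were lower, where 4.24% of all tested genes passed in that direction. They added PDSS2, VLDLR and LRP1, named after their values were seen. LRP1, a large lipoprotein receptor, had log2 differences of -0.26, -0.25 and -0.30 in replicates 1, 2 and 3, with a blocked adjusted p by edgeR of 0.403. Its groups overlapped. In the other direction, ACAT1, the mitochondrial thiolase, and ERG28, a scaffold of the sterol enzymes, had every copper library above every control library. Their log2 fold changes were 0.15 and 0.21, with an adjusted p of 1.00 each by edgeR, and they too were named after their values were seen. Wholly higher in copper were 2 of the 41, ACAT1 and ERG28, beside 5.45% of all tested genes. Wholly lower were 3, OSBP, FAXDC2 and PDSS2, beside 5.35%. Over the 41 genes, 5 were higher and 6 lower in copper in all 3 replicates, beside 17.7% and 17% of all tested genes.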

How the data were processed

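The file the authors deposited holds unnormalised counts per gene in 6 libraries, and its columns were matched to samples by the descriptions in the labels. The submitters' processing notes name STAR, FastQC, edgeR and the build GRCh38. Versions, the counting program and its use of strand are not given in the sources used here. Per the labels' protocols the library kit was directional. Starts in the table count from 0, and 1 was added. Genes without a symbol (5, with 0.000814% of counts) were left out.

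Counts were filtered with filterByExpr (minimum 10, total 15), scaled by TMM and tested in R 4.3.3 with edgeR 4.0.16 (robust quasi-likelihood fit, group as the term, Benjamini-Hochberg over all genes, called under 0.05). CPM is counts over TMM-scaled library size. A prior count of 2 entered the log2 fold changes, and intervals used the fit's total degrees of freedom. Differences by replicate are log2 CPM with the same prior count. The script was tested on simulated data with 2-fold changes and no replicate effect. That check does not bear on differences as small as those of the genes here.

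Within a group, chi-square per degree of freedom was at least 5.04, so no library was taken as a repeat run of another. Each was counted as a replicate, but this does not show that they were separate cultures. Between replicates 1 and 2 it was 5.55 in copper and 5.04 in control. Pairs with replicate 3 had 57.8 and 61.1 in copper and 20.6 and 19.8 in control. Across 12944 genes, deviations from group means of same-numbered libraries correlated at 0.46, 0.40 and 0.65, above the 0.1 set for pairing, though the labels state no shared batch. Replicate 1 of each group also correlated with replicate 2 of the other, at 0.32 and 0.27. The blocked fit is given for calls, for counts of intervals and for p-values of some genes. Intervals of single genes, also in the figure, are from the fit without the block. The coefficient of variation between libraries beyond counting noise was 15.4% without the block and 9.05% with it. For INSIG1 the 95% interval was -0.47 to 0.35 without the block and -0.23 to 0.14 with it.

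Members and lists were chosen with earlier results of these data known. The genes given in full were those without overlap, the 8 with the smallest p, and 11 set by name. Alternatives used DESeq2 1.42.0 and limma 3.58.1 (voom), other scalings, filters and prior counts, terms for replicate, and fewer libraries. EBP, LBR, LSS, NPC2 and NR1H3 were given in full after their values were seen. No set test was made. Exon lengths and 50-base words came from GENCODE 29.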

Additional observations from a re-analysis of the deposited data

How the results depend on the processing

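Over 16 alternatives, 0 of the 32 tested genes were called (33 with no filter), and the smallest adjusted p of any member was 0.238. Over all genes, 0 were called; the replicate block gave 22, DESeq2 27, testing without a filter 12, 35 were called with a batch term for replicate 3, 111 in replicates 1 and 2 alone, and leaving out single libraries 0 to 15, with 15 only without copper replicate 3. The median of the members ran from -0.0458 to 0.0977 over the fits that left out a library. Those fits kept the same-numbered library of the other group. The replicate block changed no member's call. ACAT2, FDPS, PMVK, SC5D, INSIG2, NPC1 and MYLIP kept their direction under all 16, and the other 25 reversed at least once, in 48 of their results against 352 that did not. FDPS was as low as 0.00615 without copper replicate 3 and INSIG2 as near 0 as -0.0424 without control replicate 3. In replicates 1 and 2 alone the log2 fold change was reversed for ABCA1 (0.0615), CYP51A1 (0.271), DHCR7 (-0.0666), HMGCS1 (0.113), LBR (0.0622), LSS (-0.00735), SOAT1 (0.0982), SREBF1 (-0.0201), SREBF2 (-0.0107), TM7SF2 (-0.184), GGPS1 (-0.0207), EBP (-0.0108), STARD4 (0.0308), and with upper-quartile scaling for SOAT1 (0.0172). With a library left out, ranges that cross 0 were ABCA1 -0.202 to 0.0583, CYP51A1 -0.378 to 0.145, DHCR7 -0.106 to 0.0843, EBP -0.0913 to 0.34, FDFT1 -0.0471 to 0.213, GGPS1 -0.0446 to 0.128, HMGCS1 -0.217 to 0.062, HSD17B7 -0.087 to 0.191, IDI1 -0.0662 to 0.183, INSIG1 -0.19 to 0.128, LBR -0.206 to 0.102, LSS -0.00781 to 0.131, MSMO1 -0.0665 to 0.255, MVD -0.0584 to 0.419, MVK -0.112 to 0.342, NPC2 -0.0416 to 0.328, NR1H3 -0.0938 to 0.26, NSDHL -0.0062 to 0.166, SCAP -0.0257 to 0.146, SOAT1 -0.107 to 0.165, SQLE -0.214 to 0.00777, SREBF1 -0.058 to 0.188, SREBF2 -0.0288 to 0.0601, TM7SF2 -0.399 to 0.586. None of these values was called in any fit, and the cause was not tested. With 3 libraries a group, the 95% interval reached past a 1.5-fold change for 8 of the 32 genes, or 3 with the replicate block, and TM7SF2 and ABCG1 are limited by their counts.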
